A study of Caenorhabditis elegans with 2 samples.

Results

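The genes for the RNA components of RNase P, RNase MRP and the signal recognition particle (SRP) were examined for HMBX-1 occupancy in Caenorhabditis elegans embryos. They number 7 of 46890 annotated nuclear genes: rpr-1 (the RNase P RNA), mrpr-1 (the RNase MRP RNA) and the SRP RNA genes srpr-1.1, srpr-1.2, srpr-2.1, srpr-2.2 and srpr-3. Occupancy was read from chromatin immunoprecipitation with sequencing (ChIP-seq) of strain OP656, genotype unc-119(tm4063) III; wgIs656, in which a transgene expresses HMBX-1 fused at its C terminus to GFP and FLAG. Early embryos of mixed sex were taken 45 min after egg bleaching, as whole organisms, and 2 biological replicates of this 1 group were sequenced. Both replicates therefore carry the unc-119 allele and the same transgene, and they share 1 control file. No region list from worms without the tag was analysed here. The sample description gives an anti-GFP antibody while the antibody field gives hmbx-1; which of these was used is unsettled. The deposited data are lists of regions and hold no expression, so the stage could not be checked against marker genes.

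The genes are those annotated for these 3 particles, and they were selected on regions already seen at them in these same lists. Every region whose summit lay within 250 bp of 1 of them was taken. The counts and signals at the genes are therefore descriptions, and no test was made on them. The lists were a relaxed list for each replicate, a relaxed list for the pooled replicates and a thresholded list. The last keeps the pooled regions that passed the authors' threshold, set by the irreproducible discovery rate procedure. The kept region that stood lowest in replicate 2 was above only 66.4% of the regions of that replicate. A place in the thresholded list therefore does not show a strong region in both replicates. On the nuclear chromosomes these held 25383 regions (replicate 1), 22887 (replicate 2), 29978 (pooled) and 416 (thresholded). Each region has a summit and a signal value from the authors' peak caller. The signal was used to rank regions and to give medians within a list. Signals of the 2 replicates were also set against each other, without rescaling, as ratios and as log2 distances. Read depth is unknown from the sources used here. The number of samples, 2, limits every statement on spread between replicates.

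RNase P is the ribonucleoprotein that trims the leader from the 5′ end of precursor tRNAs, and RNase MRP is its relative that cleaves precursor ribosomal RNA. The SRP binds signal sequences as they emerge from the ribosome and brings the ribosome to the endoplasmic reticulum, and its RNA is the scaffold of the particle. The genes of these RNAs are known in animals as templates of RNA polymerase III. RNase P and MRP RNA genes are, in vertebrates, started from elements upstream of the gene that include a TATA box, whereas tRNA genes use elements inside the gene, the A and B boxes. HMBX-1 is a homeobox protein related to human HMBOX1.

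The SRP RNA genes are copies of one another, which bears on how reads can be placed at them, so the sequences are shown first. In RefSeq WBcel235 (the same assembly as ce11), srpr-2.2 lies at chrIII:5031410-5031708 on the minus strand and srpr-3 at chrV:9293334-9293632 on the minus strand, each 299 bp long. Both are given 5′ to 3′ along the RNA. Capitals in srpr-2.2 mark the 3 bases that differ from srpr-2.1, and capitals in srpr-3 mark the bases that differ from srpr-2.2.
srpr-2.2: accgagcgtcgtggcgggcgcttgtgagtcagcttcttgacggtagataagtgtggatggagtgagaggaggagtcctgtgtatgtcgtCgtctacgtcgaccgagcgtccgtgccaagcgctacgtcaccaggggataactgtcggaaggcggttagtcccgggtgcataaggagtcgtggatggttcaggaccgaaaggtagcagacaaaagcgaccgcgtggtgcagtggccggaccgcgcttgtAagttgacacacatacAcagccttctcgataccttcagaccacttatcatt
srpr-3: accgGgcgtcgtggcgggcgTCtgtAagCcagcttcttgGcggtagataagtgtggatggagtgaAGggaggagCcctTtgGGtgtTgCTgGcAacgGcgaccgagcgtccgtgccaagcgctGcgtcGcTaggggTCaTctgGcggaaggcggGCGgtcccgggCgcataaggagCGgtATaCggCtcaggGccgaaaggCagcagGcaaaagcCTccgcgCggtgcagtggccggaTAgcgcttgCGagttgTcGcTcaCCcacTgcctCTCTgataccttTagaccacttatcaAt
Counted from 1 at the 5′ end, with the srpr-2.1 base first, the differences between srpr-2.1 and srpr-2.2 are T90C, G249A and G265A. Those copies were 99.0% identical, and srpr-1.1 and srpr-1.2 were 98.3% identical, with 5 alignment columns that differ. Between these pairs identity was 94.0 to 94.3%. The outlying copy was srpr-3, at 81.7 to 82.5% identity to the other 4, with 53 to 55 columns that differ. In contrast to the SRP genes, rpr-1 and mrpr-1 were 50% identical to each other.

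Upstream of the genes the copies were less alike, with one exception. The 150 bp before srpr-1.1 and before srpr-1.2 were 81.0% identical, and they share an unbroken stretch of 65 bases. Those before srpr-2.1 and srpr-2.2 were 52.9% identical, close to the 49.4 to 57.1% of the other pairs of SRP genes. The 60 bases before each SRP gene are shown on the strand of the gene, ending at the base before the 5′ end, from chrIII:4379207-4379266 (minus strand, srpr-1.1), chrIII:4369408-4369467 (plus, srpr-1.2), chrIII:5211160-5211219 (plus, srpr-2.1), chrIII:5031709-5031768 (minus, srpr-2.2) and chrV:9293633-9293692 (minus, srpr-3) of RefSeq WBcel235. Capitals mark GAAAAACC, the longest word found before 4 of the 7 genes, and TTATAT, which holds the reverse complement of the TATAA word.
srpr-1.1 upstream: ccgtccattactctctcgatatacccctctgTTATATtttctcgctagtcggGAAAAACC
srpr-1.2 upstream: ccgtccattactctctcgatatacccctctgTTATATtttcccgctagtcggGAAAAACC
srpr-2.1 upstream: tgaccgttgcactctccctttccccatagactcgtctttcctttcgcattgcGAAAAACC
srpr-2.2 upstream: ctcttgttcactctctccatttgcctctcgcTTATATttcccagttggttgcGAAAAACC
srpr-3 upstream: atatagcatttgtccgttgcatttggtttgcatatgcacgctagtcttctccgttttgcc
GAAAAACC ends at the base before the gene in srpr-1.1, srpr-1.2, srpr-2.1 and srpr-2.2, in each case on the gene's strand. It occurred on either strand in 1.47% of the 150 bp windows upstream of all 46890 genes. The 4 genes that hold it are copies of one another, so they are not separate occurrences to set against that share. Of the 7 genes, srpr-3, rpr-1 and mrpr-1 lack the word upstream. TTATAT starts 29 bp before srpr-1.1, srpr-1.2 and srpr-2.2 on the gene's strand. On either strand it was present before 5 of the 7 genes, with rpr-1 and mrpr-1 added, against 18.4% of all upstream windows. At srpr-1.1 and srpr-1.2 it lies in the stretch of 65 bases that they share, so it is not a separate occurrence in each. These words were picked after the sequences had been compared, and their part in the occupancy was not tested.

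The RNase MRP RNA gene has upstream words in common with the RNase P RNA gene. The 100 bases before mrpr-1 are chrII:7200133-7200232 (plus strand, RefSeq WBcel235), with capitals on the word GTGTC, the word GCCGC and an AT-rich stretch that begins with GTATATA. The same stretch ends with the word TATATAA, which overlaps it. Each of these words is also present on the same strand upstream of rpr-1. They were picked because both genes hold them, so the sharing was fixed by that choice. Their part in the occupancy was not tested.
mrpr-1 upstream: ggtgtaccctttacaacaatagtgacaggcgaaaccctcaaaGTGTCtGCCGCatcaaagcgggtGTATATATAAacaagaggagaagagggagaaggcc
GTGTC starts 58 bp before mrpr-1 and 56 bp before rpr-1. GCCGC starts 52 bp before mrpr-1 and, among other places, 50 bp before rpr-1. TATATAA starts 32 bp before mrpr-1 and 30 bp before rpr-1, so these 3 words differ by 2 bp in their distance from the gene. The start of GTATATA differs more, at 35 bp before mrpr-1 and 31 bp before rpr-1. On either strand, 14.1% of all upstream windows hold GTGTC, 6.58% hold GCCGC, 2.39% hold GTATATA and 4.85% hold TATATAA. The word TATAA, searched on both strands in 150 bp, was present before 6 of the 7 genes (all but srpr-3), against 39.0% of all upstream windows. On the strand of the gene it starts 30 bp before mrpr-1, 28 bp before rpr-1 and 103 bp before srpr-2.1. On the other strand it starts 29 bp before srpr-1.1, srpr-1.2 and srpr-2.2. At srpr-1.1 and srpr-1.2 it lies in the stretch of 65 bases that they share, so it is not a separate occurrence in each.

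Of the words that stand for the elements inside tRNA genes, GTTCGA (from the B box) was found on neither strand of any of the 7 genes or of their upstream 150 bp. It was present in 4.53% of all upstream windows and in 12.4% of windows of the first 299 bases of all genes. AGTGGT (from the A box) was found on 1 strand or the other inside mrpr-1 and all 5 SRP genes, against 10.6% of such gene windows. Only srpr-1.1 and srpr-1.2 hold it on the RNA's own strand. In mrpr-1 it starts at position 78 on the opposite strand. In all 5 SRP genes it starts at position 287 on the strand opposite to the RNA. In srpr-1.1 and srpr-1.2 it also starts at position 175 on the RNA's own strand. The SRP genes are copies of one another, so these shared positions are not separate occurrences to set against the share of all genes. A run of at least 4 T, the signal at which RNA polymerase III stops, lay wholly within the 30 bp after 5 of the 7 genes, against 46.2% of all nuclear genes. For the other 2 genes, rpr-1 and srpr-1.1, a run of 5 T begins within the last bases of the annotated gene. With runs that begin in the last 6 bases allowed, 7 of the 7 genes had one, against 51.9% of all nuclear genes. This wider rule was added to the planned one and takes in the 2 genes that the planned one missed. The genes had 51.0 to 62.9% GC, with the highest share in srpr-3, and their upstream 150 bp had 36 to 62.7%, with the highest share at rpr-1.

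Each of the genes lies outside annotated coding-gene exons and away from other small RNA genes. The nearest annotated tRNA, snoRNA, snRNA or rRNA gene was 6825 to 93136 bp away. The MRP gene, mrpr-1 (chromosome II, 7200233 to 7200418, plus strand), ends 131 bp before the start of pcrg-1 on the same strand, the closest protein-coding start at any of the 7. The srpr-1.1 gene (chromosome III, 4378909 to 4379206, minus strand) is intergenic and 611 bp from the start of B0284.3. The srpr-1.2 gene (chromosome III, 4369468 to 4369766, plus strand) lies in an intron of ckb-2 on the same strand, 1119 bp from the start of ckb-3. These copies are 9142 bp apart and point in opposite directions. The srpr-2.1 gene (chromosome III, 5211220 to 5211518, plus strand) is intergenic, 2111 bp from the start of syx-16. The srpr-2.2 gene lies in an intron of klp-6 on the opposite strand, 481 bp from the klp-6 start, and overlaps the annotated ncRNA R144.16. The srpr-3 gene is 1169 bp from the start of ZK682.7 and has almost the same bounds as the annotated ncRNA F44A2.13. The RNase P gene, rpr-1, spans 253 bp on the plus strand (chromosome I, 13463955 to 13464207) in an intron of ints-8, on the strand opposite to that gene and 6164 bp from its start.

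A thresholded region was present at 6 of the 7 genes, at rpr-1, mrpr-1, srpr-1.1, srpr-1.2, srpr-2.1 and srpr-2.2, and not at srpr-3. The same call was made at 1.54% of the 46890 nuclear genes and at 2.29% of the 7764 genes annotated as ncRNA, the class in which all 7 fall. Since the genes were chosen on this list, nothing is read from the gap. Among other kinds of RNA gene, 143 of 612 tRNA genes (23.4%), 49 of 346 snoRNA genes (14.2%) and 10 of 129 snRNA genes (7.75%) had a thresholded region. In all, 7 thresholded regions lay at the genes, because srpr-2.2 had 2 that overlap each other. All 7 genes had a region in the pooled relaxed list, in which 26.0% of ncRNA genes had one. The relaxed lists held 13 (pooled), 11 (replicate 1) and 12 (replicate 2) regions at the genes.

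The strongest region in the pooled list and in replicate 1 was at rpr-1, while in replicate 2 that at srpr-2.2 was slightly higher. The rpr-1 signal was 228 in the pooled list, 149 in replicate 1 and 86.3 in replicate 2, and it ranked 76 of the 416 thresholded regions. The mrpr-1 region had 175 in the pooled list, 93.3 in replicate 1 and 79.1 in replicate 2, and ranked 139. Both RNase genes thus stood in the upper part of the thresholded list, although well below its highest value of 688. Their summits lay near the 5′ end of the gene in each list. At rpr-1 the summit was 48 bp (pooled), 53 bp (replicate 1) and 30 bp (replicate 2) downstream of the 5′ end. At mrpr-1 it was 31 bp (pooled), 40 bp (replicate 1) and 24 bp (replicate 2) downstream. The rpr-1 region was 220 bp wide, whereas the regions at the other genes had 490 bp, the median width of the thresholded list.

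Among the SRP RNA genes, srpr-2.2 had the strongest region, with a signal of 192 in the pooled list, 104 in replicate 1 and 87.2 in replicate 2, ranked 109 of 416. Its other thresholded region had a signal of 121 and a summit 44 bp upstream of the gene. In replicate 1 the matching regions lay at 169 bp downstream and 36 bp upstream of the 5′ end, and in replicate 2 at 245 and 37 bp downstream, so the replicates placed the pair of regions differently. The srpr-1.2 region had 126 in the pooled list, 73.2 in replicate 1 and 55.2 in replicate 2 (rank 235). At srpr-1.1 the values were 119 in the pooled list, 85.2 in replicate 1 and 48.4 in replicate 2 (rank 263). Of the called genes, srpr-2.1 had the weakest region in the pooled list and in replicate 2, with 106 in the pooled list, 73.6 in replicate 1 and 26.2 in replicate 2 (rank 347); in replicate 1 srpr-1.2 was slightly lower. Thus, of the copies that differ by 3 bases, srpr-2.2 had the higher signal in both replicates and srpr-2.1 the lower.

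The uncalled gene, srpr-3, had a region in every relaxed list, all with low signal. The values were 48.3 in the pooled list, 23.6 in replicate 1 and 21.5 in replicate 2, against list medians of 30.7, 23.1 and 17.1. This placed it at rank 3515 of the 29978 pooled nuclear regions, above 88.3% of them. It stood above 52.7% of the regions of replicate 1 and 76.5% of those of replicate 2. Its summits nonetheless agreed closely, at 159 bp (pooled), 161 bp (replicate 1) and 159 bp (replicate 2) from the 5′ end. The lowest signal in the thresholded list was 95.3 and the highest pooled nuclear signal outside it was 95.2. The weakest called gene was therefore above that edge and srpr-3 well below it. A further 5 pooled regions at the called genes also stayed below it, with signals of 28.5 at srpr-1.1 to 71.0 at mrpr-1.

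**Figure D1:**
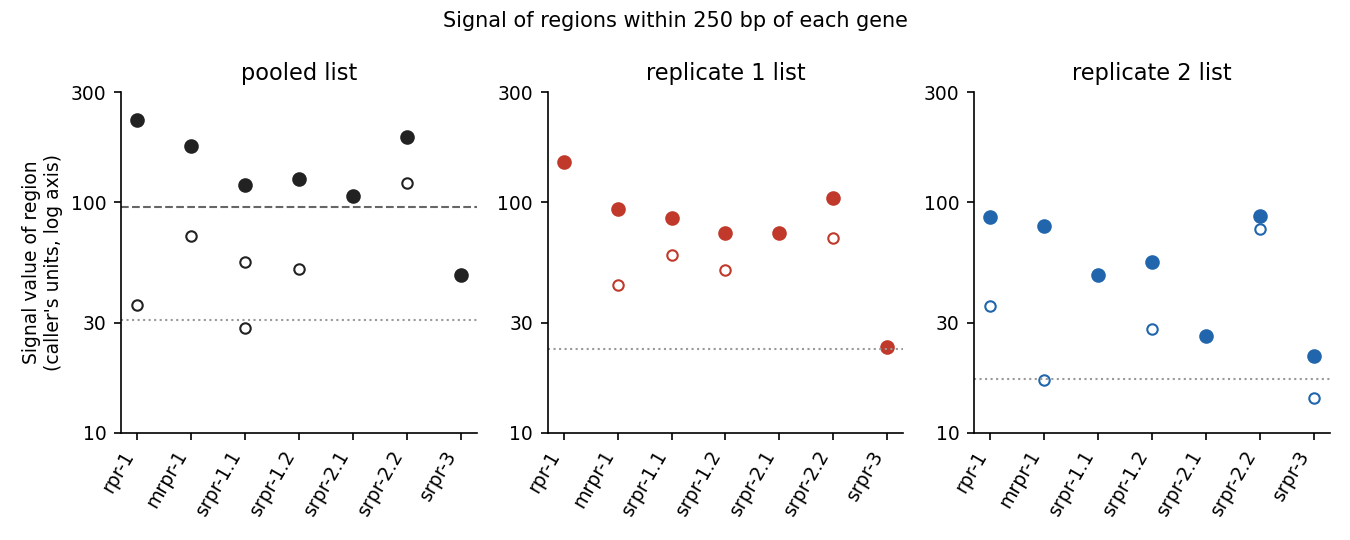
Signal value (caller's units, log axis) of each region within 250 bp of the 7 genes, in the pooled, replicate 1 and replicate 2 lists; filled points are the strongest region at a gene and open points its other regions. Dotted lines are the list medians and the dashed line is the lowest thresholded signal, 95.3; among the strongest regions per gene, rpr-1 is highest in the pooled list at 228 and srpr-3 lowest at 48.3.

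The choice of 250 bp decided no call. Within it, the summit farthest from a gene lay 79 bp outside srpr-1.1 (signal 28.5). The nearest summit beyond it lay 677 bp from srpr-3 (signal 22.6), and for the other genes the nearest excluded summit was 959 to 4053 bp away. No excluded thresholded region came closer than 6255 bp, at rpr-1. For srpr-1.1 and srpr-1.2 it was the region of the other copy, at 9305 and 9108 bp.

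The replicates differed most at srpr-2.1. The ratio of its signal in replicate 1 to that in replicate 2 was 2.81, above 97.8% of the 416 thresholded regions, whose median ratio was 1.47 (range 0.490 to 3.93). In replicate 2 its signal of 26.2 ranked 2568 of 22887, its deposited −log10 q value was 0.69 against a list maximum of 1.99, and 4 of the 416 thresholded regions, itself included, had a replicate 2 signal this low. The other called genes had ratios of 1.76 (srpr-1.1), 1.72 (rpr-1), 1.33 (srpr-1.2), 1.19 (srpr-2.2) and 1.18 (mrpr-1). When the 416 nuclear regions of highest signal were taken from each replicate alone, replicate 1 held all 6 genes and replicate 2 held 5, without srpr-2.1. In these sets 2.13% (replicate 1) and 2.24% (replicate 2) of the ncRNA genes had a region.

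**Figure D2:**
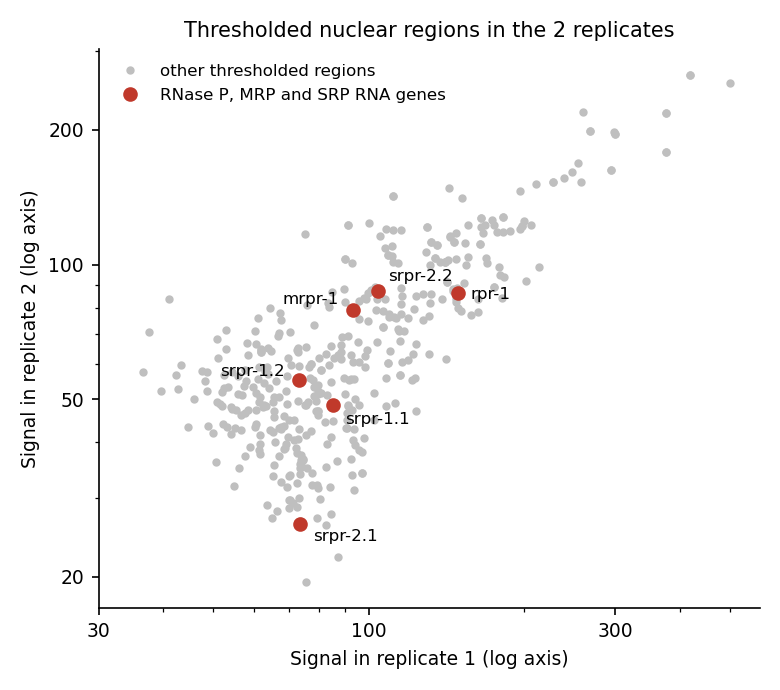
Signal of the 416 thresholded nuclear regions in replicate 1 (horizontal) and replicate 2 (vertical), both on log axes, with the strongest region at each called gene in red and other regions in grey. Of the 6 red points, 5 lie within the main cloud and srpr-2.1 lies at its lower edge, with 73.6 in replicate 1 and 26.2 in replicate 2.

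Where the summit lay differed between the RNase genes and the SRP genes. At rpr-1 and mrpr-1 it was close to the 5′ end in both replicates. At the 4 called SRP genes the pooled summit of the strongest region lay 136 bp (srpr-1.2), 157 bp (srpr-2.2), 251 bp (srpr-2.1) and 332 bp (srpr-1.1) downstream of the 5′ end, the last being 35 bp past the 3′ end. At srpr-1.1 both replicates had the summit past the 3′ end, by 11 bp (replicate 1) and 74 bp (replicate 2). At srpr-2.1 the positions were 254 and 278 bp. At srpr-1.2 the strongest region of replicate 1 had its summit 4 bp from the 5′ end and that of replicate 2 at 132 bp. Summits of the 2 replicates were 23 bp apart at rpr-1, 16 bp at mrpr-1, 24 bp at srpr-2.1, 63 bp at srpr-1.1, 76 bp at srpr-2.2 and 128 bp at srpr-1.2. The median over the 416 regions was 37 bp, so srpr-1.1, srpr-2.2 and srpr-1.2 were placed less closely than that.

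**Figure D3:**
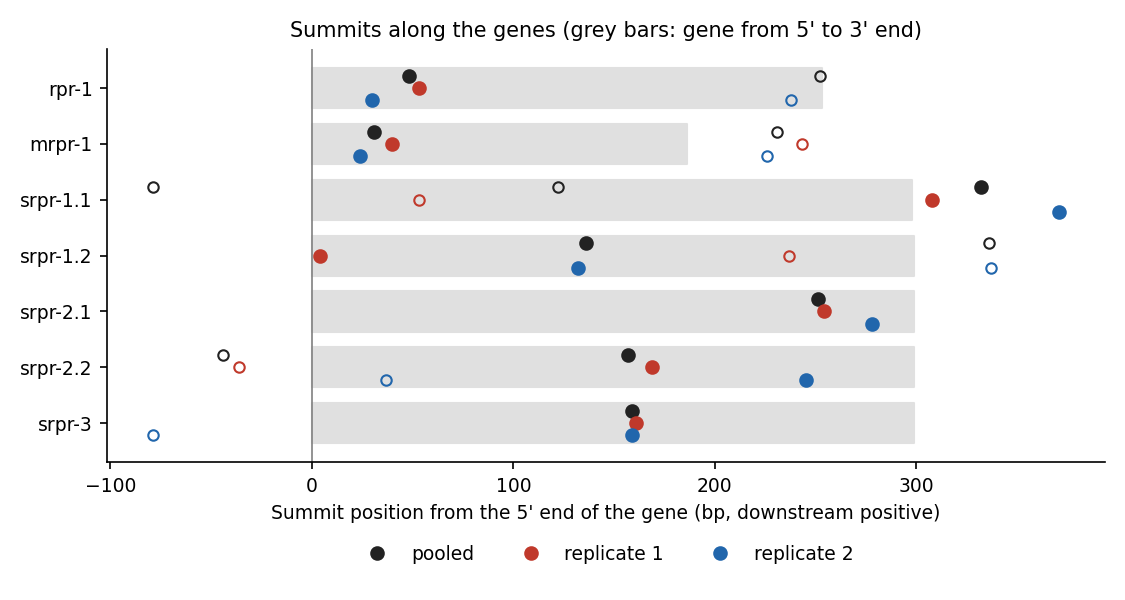
Positions of region summits (bp from the 5′ end, downstream positive) in the pooled, replicate 1 and replicate 2 lists, with each gene as a grey bar; filled points are the strongest region per list and open points the others. At rpr-1 and mrpr-1 the strongest summits sit between 24 and 53 bp, whereas at srpr-1.1 they lie past the 3′ end.

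Over all 7 thresholded regions at the genes, the median summit was 136 bp downstream of the 5′ end (range -44 to 332), with 1 upstream, 5 inside and 1 downstream of the gene. With the strongest region per gene alone, over 6 genes, it was 146.5 bp (range 31 to 332). For comparison, and with every region counted, 138 thresholded regions at tRNA genes had a median of 37.5 bp, with 27 upstream, 86 inside and 25 downstream. The 51 regions at snoRNA genes had a median of -43 bp, with 42 upstream, 5 inside and 4 downstream. The 13 regions at genes annotated as snRNA, which include spliced leader RNA genes (sls-2), were spread from -233 to 325 bp, with a median of 141. The region at -233 bp, from sls-2.9, is also counted at a tRNA gene, 101 bp from its 5′ end. The summits at the RNase genes, at 31 and 48 bp, therefore lay near the middle of the tRNA gene positions when counted in bp from the 5′ end. The weaker region at srpr-2.2, at -44 bp, was the only 1 of the 7 upstream of its gene. It overlaps the stronger region of that gene, whose summit was at 157 bp. In the pooled list mrpr-1 (31 and 231 bp) and srpr-1.2 (136 and 336 bp) also had 2 summits at about this spacing. Whether the region at -44 bp marks a separate site was not tested. Gene lengths differ between the kinds of RNA gene, with a median of 73 bp for the tRNA genes and 76 bp for the snoRNA genes. Median signal was 126 over the 7 regions, 142 at tRNA genes, 220 at snoRNA genes and 163 at snRNA genes, against 134 over all 416 regions. With the strongest region per gene alone the median of the 6 genes was 150, so whether they stood above or below the median of all regions, and of tRNA gene regions, turned on that choice.

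**Figure D4:**
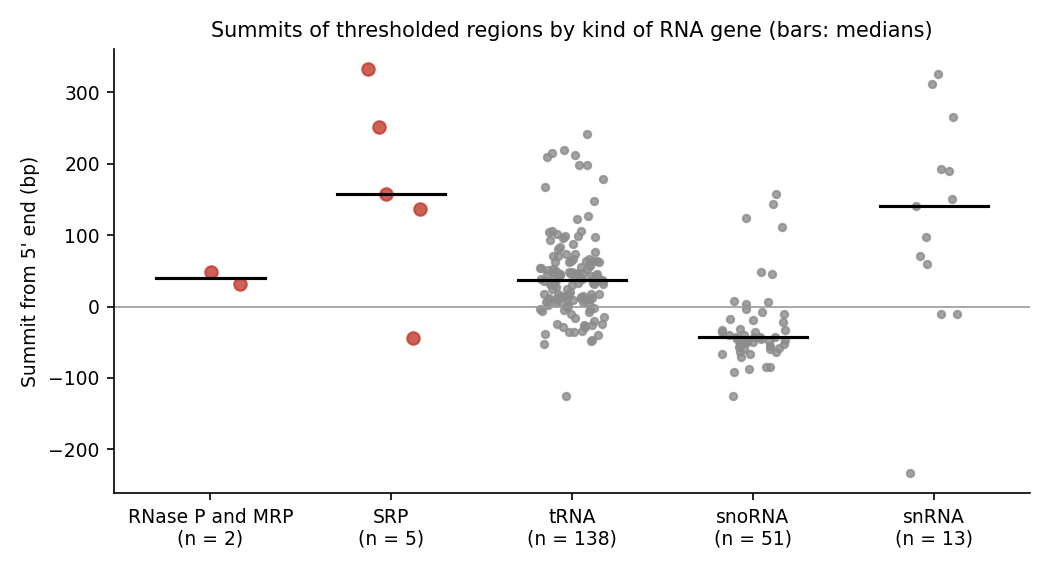
Summit position (bp from the 5′ end) of thresholded regions at RNase P and MRP RNA genes, SRP RNA genes, tRNA, snoRNA and snRNA genes; each point is 1 region, every region counted, spread sideways only for visibility, and bars are medians. The medians are 39.5, 157, 37.5, -43 and 141 bp, and the SRP point below 0 is the weaker region at srpr-2.2.

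The genes differ in how far reads can be placed at them uniquely. Every 36-base word inside rpr-1, mrpr-1 and srpr-3 was found once in the nuclear and mitochondrial genome. For the near-identical copies the share was 14.8% (srpr-1.1), 28.8% (srpr-1.2), 31.4% (srpr-2.1) and 33.0% (srpr-2.2), with words present up to 4 times. With 100-base words it was 54.3%, 54.5%, 70.5% and 70.5%, in the same order. The flanks were mostly unique at 36 bases: 86.8% of the upstream 300 bp of srpr-1.1 and 88.7% of that of srpr-1.2 were found once, and 100% at srpr-2.1, srpr-2.2 and srpr-3, as were the 300 bp after each SRP gene. After rpr-1 the share was 90.2%. At the pooled summits of rpr-1, mrpr-1, srpr-1.1, srpr-2.1 and srpr-3 the word was found once. At those of srpr-1.2 and srpr-2.2 it was found in 2 places. How the authors treated reads that map to several places is not given in the sources used here. The part of this in the signals, in the summit positions of the 4 copies and in the calls was not tested.

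**Figure D5:**
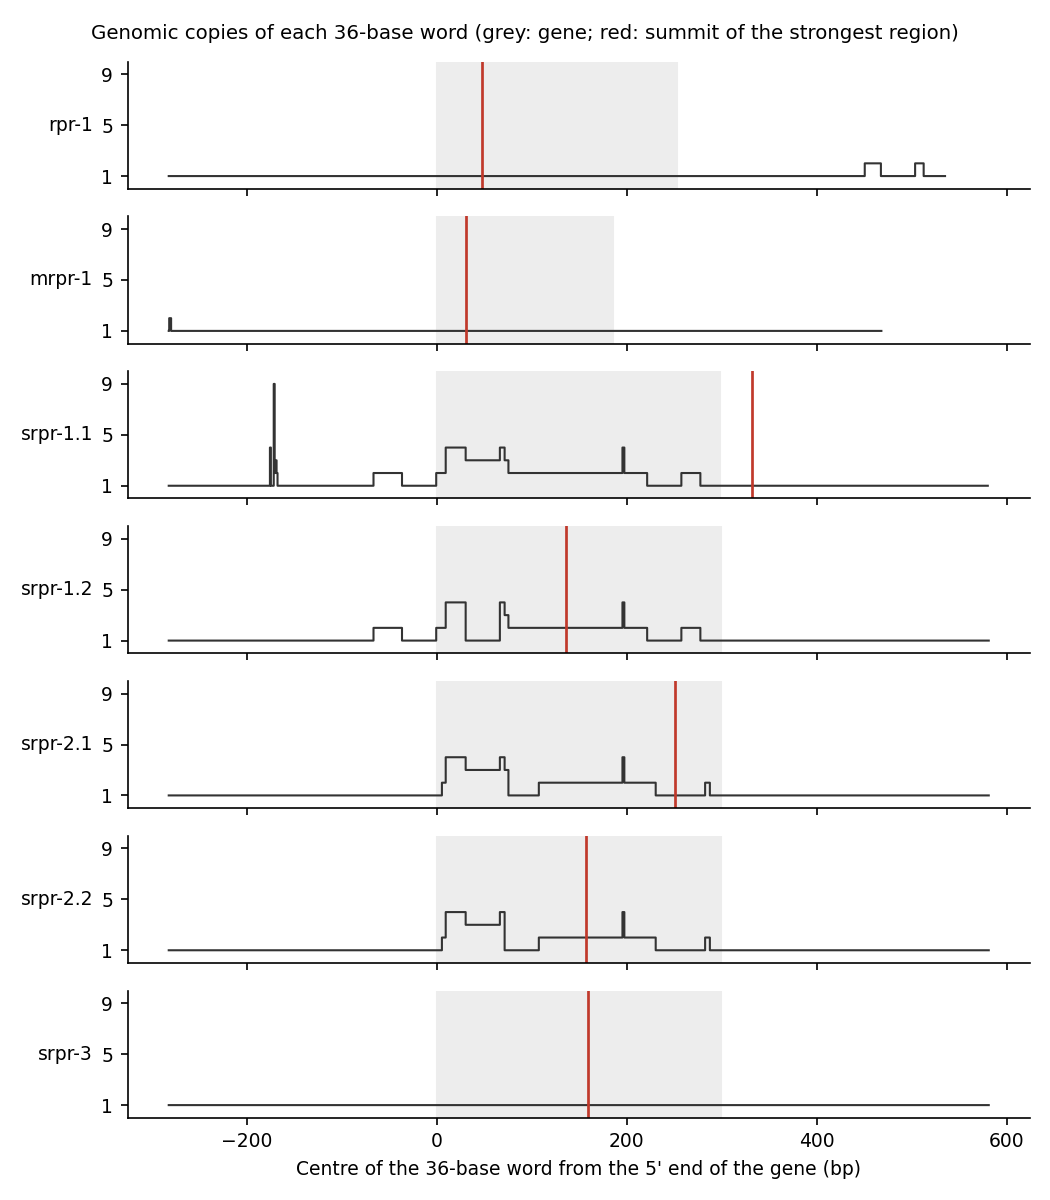
Number of places in the genome at which each 36-base word occurs (vertical) along the 7 genes and 300 bp on each side, by the position of the word's centre (bp from the 5′ end); grey marks the gene and the red line the pooled summit of its strongest region. Inside the genes the count stays at 1 in rpr-1, mrpr-1 and srpr-3 and reaches 4 in srpr-1.1, srpr-1.2, srpr-2.1 and srpr-2.2; in the flanks it reaches 2 after rpr-1 and before mrpr-1 and srpr-1.2, and 9 before srpr-1.1.

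A search of the genome with each gene (BLAST, e-value limit 1e-05) found no match for rpr-1 or mrpr-1 other than themselves. The SRP RNA genes matched one another. Over 47 to 55 bp at its 5′ end, srpr-3 also matched 6 places on chromosome X; 1 of these was matched by srpr-1.1, srpr-2.1 and srpr-2.2 as well, at 81.8% identity, and srpr-1.2 matched none. None of these 6 had a thresholded region within 250 bp and 1 had a pooled region, with a signal of 31.3.

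For each called gene, the thresholded region elsewhere that was most alike in both replicates was found, as the smallest distance in log2 signal over the 2 replicates. The region nearest to rpr-1 was at the annotated ncRNA gene C16B8.8, with the closest tRNA gene 22 bp from the summit. The one nearest to mrpr-1 was at the ncRNA gene T23F1.9, with the closest tRNA gene 32 bp away. That nearest to srpr-2.2 lay 55 bp from the snoRNA gene Y75B12B.12. The one nearest to srpr-1.2 lay inside the ncRNA gene Y69A2AR.41, a tRNA gene and mdf-2, which overlap there, and the one nearest to srpr-1.1 in zig-11. The region nearest to srpr-2.1 lay 254 bp outside trap-3, with 73.5 in replicate 1 and 26.6 in replicate 2. Distances were 0.02 to 0.09 in log2 units.

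Protein-coding genes linked to the same particles by annotation or symbol were then counted, from a list of 18. Not all encode subunits, as Y37F4.4 is annotated as an SRP-docking protein. None of the 18 had a thresholded region within 500 bp of its start, which allows a share of up to 16.7%, against 1.04% of the 19973 protein-coding genes. In the pooled relaxed list 11 of 18 (61.1%) had a region there, against 32.2% of protein-coding genes. The replicates differed in this. In replicate 1 it was 4 of 18, against 5627 of the 19973 protein-coding genes, so the share was not above that of all genes. In replicate 2 it was 11 of 18, against 5241 of the 19973. Of the genes with the highest pooled signals, ZK512.4, the SRP 9 kDa subunit, had 44.6 in the pooled list, 21.4 in replicate 2 and no region in replicate 1. Another was F38A1.8, annotated as a protein with an SRP54-type GTP-binding domain, which had 40.7 in the pooled list, 19.9 in replicate 1 and 28.1 in replicate 2. Both pooled signals lay below the lowest thresholded signal of 95.3, as did that of srpr-3. The list includes mig-2, a Rac-like GTPase that entered by a product name, and R186.3, whose RefSeq product name is that of an ADP-ribosylation factor-related protein. It also holds popl-7 and Y62E10A.24, which overlap and share 1 region.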

How the data were processed

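ChIP-seq region lists of 2 biological replicates of 1 group were used as deposited. Per the file headers and notes, the authors called relaxed regions per replicate and on the pooled replicates, against 1 shared control file, and thresholded them by the irreproducible discovery rate. The deposited signal is the peak caller's own value. It was ranked and summarised within a list, and used without rescaling for the ratios and log2 distances between replicates. The deposited −log10 q value was used for description. The aligner and caller are, like the handling of repeated sequence, not given in the sources used here. Depth is unknown. The ce11 lists were used and the ce10 lists were not.

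Gene models came from Ensembl release 115 and sequence from RefSeq, both WBcel235. A gene had a region when a summit lay within 250 bp; mitochondrial regions were left out. A percentile is the share of regions in a list with lower signal. Identity is the share of equal columns in a global alignment (Biopython 1.88, match 1, mismatch -1, gap opening -2 and extension -0.5). Words of 36, 50 and 100 bases were counted on both strands, and matches were searched with BLAST 2.17.0. Where the limit for a count of 0 is given, it is 3 counts, and covers counting error only. Position and word counting were checked on simulated sequence. The genes, word lists and partner list were chosen with earlier results of these data known. Named beside the 7 genes were the nearest coding start of each, the region nearest in signal, regions on either side of 250 bp, and the 3 partner genes of highest pooled signal, as none had a thresholded region. Of these 3, 1 is not reported here. Alternatives were other distances, overlap, a stricter list, each replicate left out, merged regions and other word lengths. With 1 group there was no comparison between conditions and no test.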

Additional observations from a re-analysis of the deposited data

How the results depend on the processing

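The count of 6 called genes was also 6 with summits within 100 or 500 bp and with any overlap of region and gene, and was 5 to 6 with 1 replicate left out (5 without replicate 1, where srpr-2.1 was lost). It was 3 (rpr-1, mrpr-1 and srpr-2.2) in the stricter list of the 208 thresholded regions of highest signal, by construction a smaller list. The median signal rank of the called genes by their strongest region, the 55.0 percentile of the thresholded regions, was 52.5 to 53.5 with 1 replicate left out and 53.1 with 1 region per group of overlapping regions. It was 43.5 with every thresholded region counted, an alternative chosen after seeing the data, since this adds the weaker region at srpr-2.2. The median summit, 146.5 bp from the 5′ end, was 111 to 188.5 bp with 1 replicate left out and 136 bp with every region counted. The median share of unique words, 33.0% at 36 bases, was 41.2% at 50 bases and 70.5% at 100 bases, as longer words span more of the differences between copies. No paired analysis was possible because the 2 samples form 1 group and no result comes from a test. Depth is unknown, so no counting interval could be set on a signal.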
